A study of Mus musculus with 60 samples.

Results

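Fmr1 and Fmr1nb are consecutive genes on the mouse X chromosome that lie on the same strand, and they were examined in every library as 2 of the 14383 genes listed in at least 1 file. They were chosen by their measured Cast/all ratios and total counts on doxycycline, as a broadly expressed gene and a neighbour that loses the allele in cis to an induced Xist transgene more strongly, so the allele-specific and total values of both genes on doxycycline in clones with the transgene on the X are given as a description without a test. All cells were female F1 2-1 hybrid embryonic stem cells (ESCs) with 1 X chromosome from 129/Sv (fused in some clones) and 1 from Cast/Ei. They carried the transactivator M2rtTA at ROSA26 and held a Cast/Ei Xist transgene behind a doxycycline-responsive promoter. ESCs were grown in medium with inhibitors of MEK and GSK3 and LIF, and were left untreated or received 2 µg/ml doxycycline for 5 days.

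In Tg-E clones 87 and 68 the transgene was targeted to the Xist locus of the Cast X chromosome, which put that Xist under the doxycycline-responsive promoter. In Tg-X clones 85, 86, 109 and 190 it had inserted into the Cast X chromosome, and in clones 267, 339 and 203b, named Tg-X;8, it lies on the 129 X chromosome fused to a part of chromosome 8, a fusion that all Tg-X and Tg-X;8 clones carry. The study describes the line with this fusion as having some X-linked genes in a single copy and some autosomal genes in an extra copy. In clones 267 and 203b the transgene had been mapped to the chromosome 8 sequence of that fusion, and in clone 339 its site was not determined. In Tg-12 clones 38, 228 and 273 it sat on chromosome 12 and both X chromosomes were without it. Clones 228 and 273 carry an additional copy of chromosome 12, as the study lists for all its Tg-12 clones. Among these the study names a clone whose name ends in 38, and no clone named 20 was found in the sources used here. The GEO labels of 38 and 20 place the transgene of both on chromosome 12. The label of clone 160 gives chromosome X and the study's methods chromosome 12. Its ESC libraries therefore entered only the values of untreated cells, an added alternative and the treated values given in this paragraph. In the X-linked genes it read like the fusion clones: 13 genes that gave a Cast share over 0.9 in every untreated Tg-X and Tg-X;8 clone also did so in clone 160, and in none of clones 87, 38, 228 and 273. Of these 13 genes, those with a known position start between 151 and 164 Mb of the X chromosome. Whether they lie in the part of the X present in a single copy was not tested. Clones 267 and 160 also carry a Tsix-Stop allele, and each group is a single clone or a few clones of the same hybrid line. Of 60 libraries, 52 had a group, 48 from ESCs and 4 from neurons at day 14 of differentiation of cells labelled 20 and 38. Most ESC clones had 2 libraries per condition. Treated clone 203b and treated clone 68 had 1 each, and clone 68 had no untreated library and was set against the untreated libraries of clone 87.

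Fmr1 encodes FMRP, an RNA-binding protein that associates with polyribosomes and restrains the translation of its target mRNAs, and its loss causes fragile X syndrome in humans. The gene is expressed in most cell types and is strong in neurons. Fmr1nb, the Fmr1 neighbour gene, encodes a predicted membrane protein whose human counterpart is known as a cancer/testis antigen, with expression mainly in the testis. Xist RNA coats the chromosome it is transcribed from and silences most genes in cis.

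In the RefSeq annotation of GRCm38, Fmr1 (gene ID 14265) lies at chrX:68678536-68717963 on the plus strand, with exons that cover 4409 bases. Fmr1nb (gene ID 207854) lies at chrX:68761839-68804561 on the plus strand, with exons that cover 931 bases. The gap between the end of Fmr1 and the start of Fmr1nb is 43.9 kb, and Xist starts 34.7 Mb beyond the end of Fmr1nb. The antisense non-coding gene Fmr1os is annotated upstream of Fmr1 and does not overlap it. The 250 bases around or before each start are shown because the genes share a neighbourhood and not a promoter, with each CG dinucleotide (CpG), the letters CG on either strand, in capitals. The first window, of Fmr1, is chrX:68678291-68678540 on the plus strand and the second, of Fmr1nb, chrX:68761589-68761838 on the plus strand.
Fmr1: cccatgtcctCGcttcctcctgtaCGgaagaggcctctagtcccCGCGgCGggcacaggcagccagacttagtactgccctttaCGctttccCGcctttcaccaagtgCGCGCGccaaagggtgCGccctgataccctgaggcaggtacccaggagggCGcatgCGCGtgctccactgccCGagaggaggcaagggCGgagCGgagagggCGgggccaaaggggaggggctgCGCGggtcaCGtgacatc
Fmr1nb: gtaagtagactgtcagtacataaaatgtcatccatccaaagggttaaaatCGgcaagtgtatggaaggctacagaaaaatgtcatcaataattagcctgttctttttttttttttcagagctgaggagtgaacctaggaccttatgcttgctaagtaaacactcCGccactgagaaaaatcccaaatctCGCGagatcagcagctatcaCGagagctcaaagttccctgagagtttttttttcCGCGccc
The Fmr1 window held 21 CpG dinucleotides and 67.2% G or C bases, and 16.3% of 32851 mouse promoter windows of the same length held at least as many CpG. The Fmr1nb window held 7 CpG and 41.6% G or C, and 46.3% of windows held at least as many, with a median of 6 over all windows. Of the 7 CpG of Fmr1nb, 3 lay in the 50 bases next to its start. The windows are read from the reference genome and carry no measurement of these cells.

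Each library's file gave, per gene, reads that matched the Cast and the 129 base at exonic polymorphic sites and the total of counted reads. The Cast/all ratio is the Cast reads over both alleles, and CPM is a gene's counted reads for every 1000000 counted reads of the listed genes. ESC libraries held 2284820 to 20637905 counted reads and neuron libraries 25057343 to 32336068. Both genes were listed in all 60 libraries. All 10 of 10 pluripotency markers were listed in ESCs at a summed 7565 to 13057 CPM, and 6 of 10 neuron markers were listed in no ESC library.

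Before doxycycline both genes were expressed from both X chromosomes in every clone. Over 24 untreated ESC libraries, Fmr1 measured 127 to 248 CPM with a median of 209. Fmr1nb measured 82.6 to 184 CPM with a median of 135. Per length of exon the order was the opposite: the median level of Fmr1nb was 145 CPM per kb of exon and that of Fmr1 47.4. Fmr1nb also gave more allele-specific reads, with 89 to 375 per untreated library and a median of 180 against 25 to 247 and a median of 83.5 for Fmr1. Allele-specific reads came to a median of 26.6% of the counted reads of Fmr1nb and 8.32% of those of Fmr1, so the ratio of Fmr1 was the less precise of the pair, with a median binomial SD of 0.0539 against 0.0371 for Fmr1nb.

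The Cast/all ratio of Fmr1 was 0.491 ± 0.050 (SD of 12 clone means) and ranged from 0.381 in clone 38 to 0.558 in clone 339. The clone 38 value is the mean of 0.482 and 0.280, the latter from only 25 allele-specific reads. With the reads of that clone summed it was 0.436. The difference of the 12 clone means from 0.5 did not pass an exact two-sided sign-flip permutation test (p = 0.573; adjusted over the pair of genes 0.573), with 6 clones below 0.5. For Fmr1nb the ratio was 0.470 ± 0.042 (SD of 12 clone means), from 0.400 in clone 273 to 0.547 in clone 190. It was below 0.5 in 8 of 12 clones, and the same exact test gave p = 0.0356, or 0.0713 after Benjamini-Hochberg adjustment over both genes, which did not pass the threshold of 0.05. With only the first library of each clone (without replicate 2) 11 of 12 clones were below 0.5 and the adjusted exact p was 0.00977, and with only the other library of each clone (without replicate 1) 8 of 12 were and the adjusted exact p was 0.373. A difference between the strains and a difference in read mapping between the genomes cannot be told apart here.

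Whether untreated clones differ in the level of a gene was tested with edgeR's quasi-likelihood F test over all 12 clones, which called 70.4% of 5012 genes at an adjusted p under 0.05. Fmr1 passed it, with a span of 0.60 on the log2 scale between the lowest and the highest clone (adjusted p = 0.0441). Fmr1nb spanned 0.93 and did not pass (adjusted p = 0.173). The 2 untreated libraries of clone 38 lay far apart in both genes: Fmr1 measured 206 and 127 CPM in them and Fmr1nb 89.4 and 184 CPM. Without the second of these libraries Fmr1nb passed as well (adjusted p = 0.000501). For the share of the Cast allele, where the test called 14.4% of genes, neither Fmr1 (adjusted p = 0.942) nor Fmr1nb (adjusted p = 0.403) passed.

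Upon doxycycline the neighbours parted: reads of the transgene-bearing allele were lower in every X-transgene clone for both genes, by less for Fmr1 than for Fmr1nb in each of the 8, and the share of that allele was lower in 8 clones for Fmr1nb and in 6 for Fmr1. In Tg-E clone 87 the Cast/all ratio of Fmr1nb was 0.451 and 0.424 without doxycycline and 0.0875 and 0.0896 with it. In the same libraries Fmr1 read 0.538 and 0.466 without and 0.319 and 0.286 with doxycycline. In treated clone 68 the ratio was 0.0742 for Fmr1nb and 0.383 for Fmr1. Thus every treated Tg-E library lay below the untreated ones for both genes, as was the case for 12.7% of 7318 genes and 79% of X-linked genes, while Fmr1nb fell much further toward 0.

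**Figure D1:**
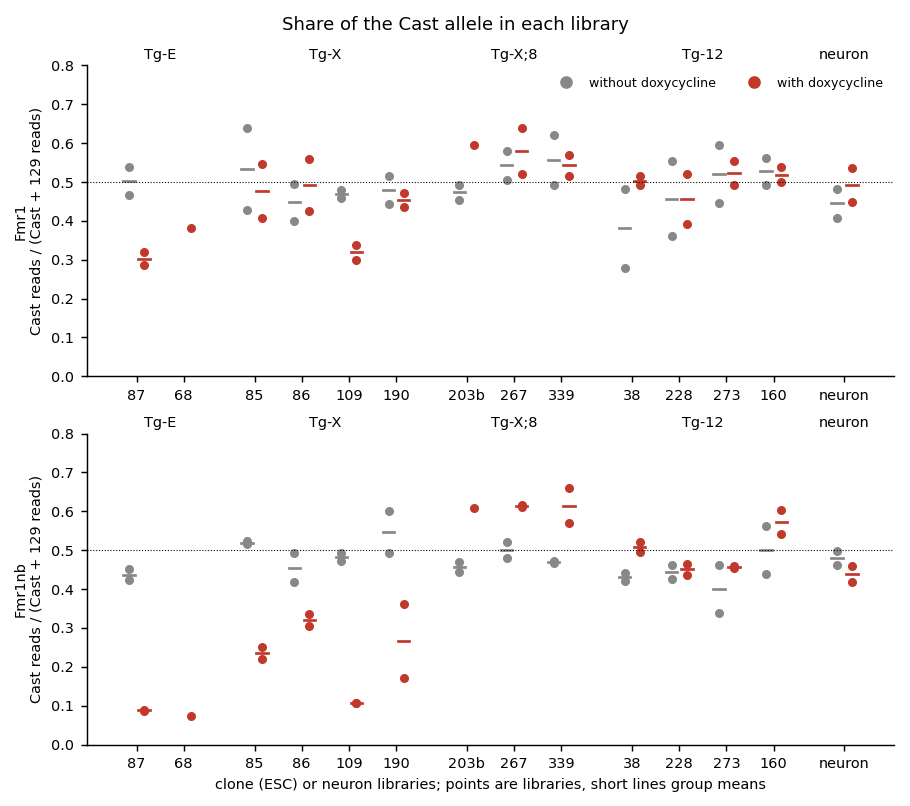
Cast/all ratio of Fmr1 (upper panel) and Fmr1nb (lower panel) in each library, by clone and for neurons, with points for libraries without and with doxycycline and short lines for group means. For Fmr1nb the treated libraries of Tg-E and Tg-X clones lie between 0.0742 and 0.362 and those of Tg-X;8 clones between 0.569 and 0.661, whereas for Fmr1 treated and untreated libraries interleave in most clones.

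In the Tg-X clones, whose transgene is on the Cast X chromosome, Fmr1nb moved in the same direction. In clone 109 its ratio was 0.492 and 0.472 untreated and 0.106 in both treated libraries. In clone 85 it was 0.524 and 0.515 untreated and 0.221 and 0.250 treated. Clone 190 had 0.494 and 0.60 untreated and 0.362 and 0.171 treated, the widest spread between libraries of a clone. Clone 86, with the lowest treated Xist of the 4, changed least. It had 0.492 and 0.419 untreated and 0.306 and 0.336 treated. All 8 treated Tg-X libraries (0.106 to 0.362) lay below all 8 untreated ones (0.419 to 0.60). The same held for 0.78% of 5770 genes and for 21.8% of the X-linked ones (24.3% without those of a single untreated allele), and these values chose the gene.

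Fmr1 did not separate in that way. In clone 109 its ratio was 0.479 and 0.460 untreated and 0.339 and 0.298 treated, a gap in the same direction as Fmr1nb. In clone 85 it read 0.427 and 0.640 untreated and 0.407 and 0.545 treated, and in clone 190 0.516 and 0.444 untreated and 0.471 and 0.436 treated. The treated libraries of clone 86 (0.560 and 0.426) were not below the untreated ones (0.400 and 0.496). Over the 4 clones the treated range of Fmr1, 0.298 to 0.560, overlapped the untreated range of 0.400 to 0.640.

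Tg-X;8 clones carry the transgene on the fused 129 chromosome, and there the Cast/all ratio of Fmr1nb moved up. It was 0.444 and 0.469 untreated and 0.608 treated in clone 203b, 0.481 and 0.522 against 0.617 and 0.612 in clone 267, and 0.473 and 0.467 against 0.569 and 0.661 in clone 339. The 5 treated libraries (0.569 to 0.661) all lay above the 6 untreated ones (0.444 to 0.522), as for 0.637% of 6118 genes and 13.4% of X-linked genes (15.7% without those of a single untreated allele). Fmr1 read 0.455 and 0.493 untreated against 0.596 treated in clone 203b, 0.506 and 0.581 against 0.522 and 0.640 in clone 267, and 0.493 and 0.622 against 0.570 and 0.516 in clone 339. The single treated value of Fmr1 in clone 203b and 1 of 2 in clone 267 lay above the untreated pair, and both treated values of clone 339 lay within it.

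To put both orientations on a common scale, the Δ ratio was taken as the untreated minus the treated share of the transgene-bearing allele. The Δ ratio was taken between libraries of the same number and averaged per clone, so that of clone 203b used only its second untreated library. For Fmr1nb it was above 0 in 8 of 8 clones, with a mean of 0.228 ± 0.106 (SD of 8 clones). It was 0.376 in clone 109, 0.349 in 87, 0.284 in 85, 0.280 in 190, 0.145 in 339, 0.138 in 203b, 0.134 in 86 and 0.114 in 267. Fmr1 averaged 0.0645 ± 0.0825 (SD of 8 clones) and was above 0 in 6 of the 8, with 0.200 in clone 87, 0.151 in 109, 0.103 in 203b, 0.0570 in 85, 0.0375 in 267, 0.0268 in 190, -0.0146 in 339 and -0.0446 in 86. The Δ ratio of Fmr1nb was thus larger than that of Fmr1 in each of the 8 clones, the contrast on which the pair was chosen. With the reads of a clone summed, the 95% interval of counting error in clone 109 ran from 0.300 to 0.449 for Fmr1nb and from 0.0343 to 0.250 for Fmr1, and in clone 86 from 0.0409 to 0.209 for Fmr1nb and from -0.133 to 0.0642 for Fmr1. A read over several polymorphic sites counts at each of them, so these intervals cover counting error only and may be too narrow.

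By the position of the transgene, the mean Δ ratio of Fmr1nb was 0.349 in Tg-E clone 87, 0.269 ± 0.100 (SD, 4 clones) in Tg-X and 0.132 ± 0.017 (SD, 3 clones) in Tg-X;8. For Fmr1 it was 0.200, 0.0475 ± 0.081 and 0.0420 ± 0.059. The values of Fmr1 moved widely with the library: in Tg-X the mean was 0.0113 without replicate 2 and 0.0837 without replicate 1, and in Tg-X;8 it was 0.0189 without replicate 1 and 0.0637 with the reads of a clone summed. The order of clones by treated Xist was not that of Fmr1nb. Clone 203b, with 1 treated library, had the highest Xist, 1870 CPM. Its Fmr1nb Δ ratio was below those of Tg-X clones 85 (1680 CPM), 109 (1611 CPM) and 190 (1004 CPM). Among clones with the transgene on the Cast X chromosome, 190 and 86 had the lowest Xist and the lowest Δ ratios (0.280 and 0.134). Clone 109, with less Xist than 87 and 85, had the highest (0.376). Xist was 1748 CPM in treated clone 87, 724 in 267, 582 in 339 and 514 in 86, and these levels include any endogenous Xist. Xist level, integration site and clone differ together, so their parts in these Δ ratios cannot be told apart.

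Total levels followed. Counted reads of Fmr1nb fell without overlap, from 114 to 168 CPM (median 143) in 16 untreated libraries of X-transgene clones to 34.0 to 101 CPM (median 64.3) in 16 treated ones. Only 0.127% of 5510 genes, and 4.67% of X-linked genes, were lower without overlap. Fmr1 measured 162 to 246 CPM (median 213) untreated and 138 to 190 CPM (median 169) treated, ranges that overlapped. Both genes were nevertheless lower on average in 8 of 8 clones, Fmr1 by a log2 change of -0.34 ± 0.19 (SD of 8 clones) and Fmr1nb by -1.13 ± 0.44. Within the Tg-X;8 clones both genes were lower without overlap, as were 1.14% of 6118 genes, with Fmr1 at 206 to 234 CPM in 6 untreated and 167 to 190 CPM in 5 treated libraries.

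**Figure D2:**
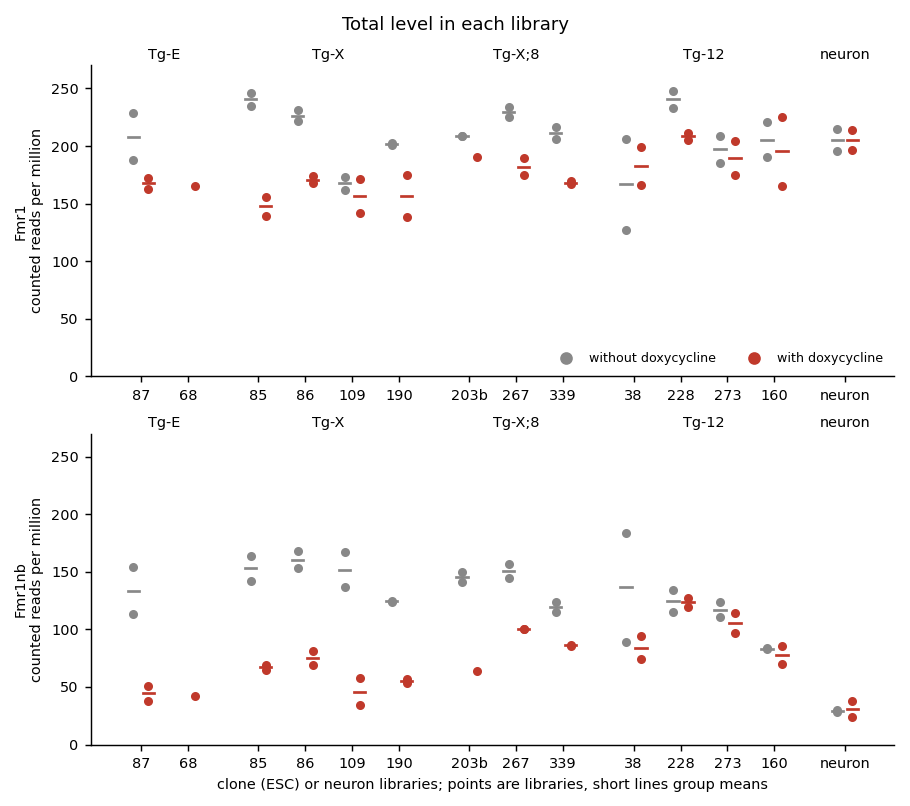
Level of Fmr1 in CPM (upper panel) and Fmr1nb (lower panel) in each library, by clone and for neurons, with short lines for group means. Fmr1nb lies between 34.0 and 101 CPM in all treated X-transgene libraries and between 23.7 and 38.0 CPM in neurons, and Fmr1 stays between 127 and 248 CPM throughout.

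The fall of Fmr1nb was widest in clone 109, from 137 and 167 CPM to 34.0 and 57.5 CPM (3.41-fold by the mean of log2 values), and in clone 87, from 114 and 154 CPM to 38.0 and 50.9 CPM (3.01-fold). Clones 85, 203b, 190 and 86 lay between 2.13- and 2.28-fold. In clone 267 it went from 157 and 144 to 101 and 100.1 CPM (1.5-fold) and in clone 339 from 116 and 124 to 86.5 and 85.8 CPM (1.39-fold). For Fmr1 the largest fall was in clone 85, from 235 and 246 to 156 and 139 CPM (1.63-fold), and the smallest in clone 109, from 173 and 162 to 171 and 142 CPM (1.08-fold). The clone with the largest fall of Fmr1nb was therefore the one with the smallest fall of Fmr1. In these bulk libraries fewer expressing cells and less RNA per cell cannot be told apart.

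Total and allelic values together give the change of each allele, as log2 of allele-specific reads for every 1000000 counted reads. For Fmr1nb the transgene-bearing allele changed by -2.23 ± 1.11 (SD of 8 clones), from -3.87 in clone 87 to -0.87 in clone 339. Its other allele, on the X chromosome without the transgene, was lower as well in 8 of 8 clones, by -0.66 ± 0.31, from -1.06 in clone 86 to -0.05 in clone 339. For Fmr1 the transgene-bearing allele changed by -0.53 ± 0.28 and was lower in 8 of 8 clones, and the other allele by -0.12 ± 0.44, lower in 5 of 8. In clones 87, 109 and 203b the other allele of Fmr1 was higher after doxycycline, by 0.43, 0.49 and 0.30. The lower total of Fmr1nb was thus made up of both alleles, while for Fmr1 the allele without the transgene varied in sign among clones. In the Tg-12 clones, which have no transgene on the X, Fmr1nb changed by -0.04 ± 0.05 (SD of 3 clones) on the Cast and -0.31 ± 0.15 on the 129 allele. The change of the other allele is given for this pair only, and whether it is particular to Fmr1nb among X-linked genes was not tested.

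**Figure D3:**
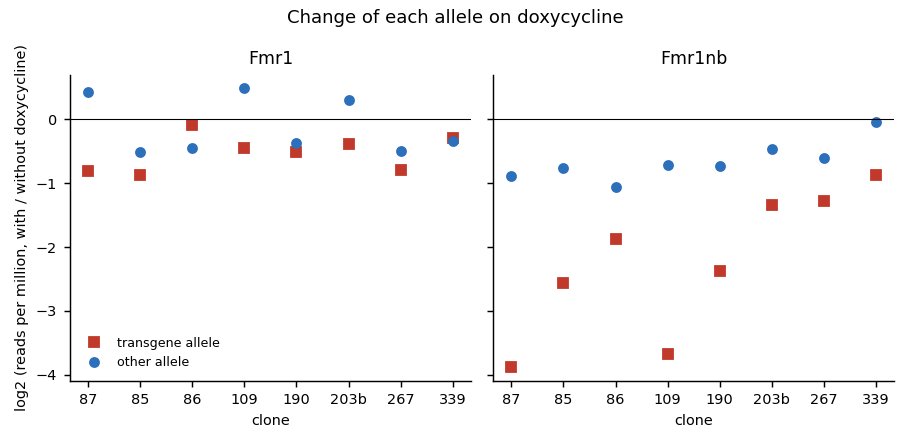
Log2 change of depth-scaled allele-specific reads on doxycycline for the transgene-bearing allele (squares) and the other allele (circles) in each of the 8 X-transgene clones, Fmr1 on the left and Fmr1nb on the right. For Fmr1nb both alleles lie below 0 in every clone, with the transgene allele lower, from -3.87 to -0.87, and for Fmr1 the alleles stay between -0.87 and 0.49.

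Among 134 X-linked genes that averaged 50 or more allele-specific reads, Fmr1nb had rank 4 by mean Δ ratio and lay above 97.0% of them. Fmr1 had rank 85 and lay above 36.6%. The median of the 134 genes was 0.0824, between the means of the pair. The 13 genes read from the Cast chromosome alone before doxycycline in every Tg-X and Tg-X;8 clone are among the 134 and can show little change there. Without them, a choice made after the data were seen, the ranks were 4 and 85 of 121, Fmr1nb lay above 96.7% and Fmr1 above 29.8%, and the median was 0.0898. By clone Fmr1nb ranked 1 in clone 109, 2 in 190, 3 in 85, 8 in 87, 19 in 86, 24 in 339, 26 in 267 and 28 in 203b. It was thus among the top 8 in Tg-E clone 87 and 3 of 4 Tg-X clones, and lower in the order in Tg-X clone 86 and the Tg-X;8 clones. Fmr1 ranged from rank 42 in clone 87 to rank 130 in clone 86. In total level, where the median X-linked gene changed by -0.27 on the log2 scale, Fmr1nb had rank 5 of the falls and Fmr1 rank 54.

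**Figure D4:**
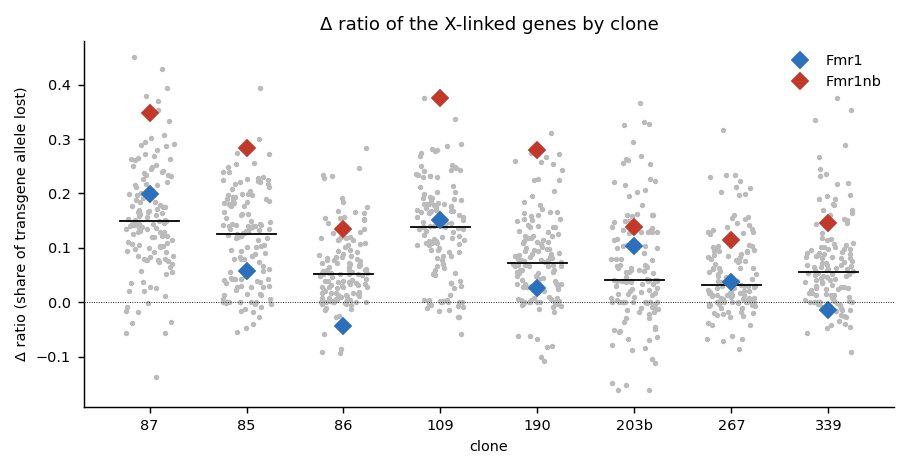
Δ ratio of 134 X-linked genes in each of the 8 X-transgene clones, with Fmr1 and Fmr1nb marked by diamonds, and the 13 genes of a single untreated allele lying between -0.0838 and 0.0502 outside clone 87. Fmr1nb lies in the upper part in every clone and is highest in clone 109 at 0.376, and Fmr1 lies within the bulk, lowest in clone 86 at -0.0446.

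The genes most like Fmr1 in Δ ratio over the 8 clones were Emd, the nuclear envelope protein emerin (root mean square difference 0.0321), Ocrl, an inositol polyphosphate phosphatase (0.0325), and Ercc6l, a mitotic helicase (0.0476). Emd starts 5.58 Mb beyond Fmr1, Ercc6l 33.5 Mb beyond it and Ocrl on its other side, at -20.8 Mb. For Fmr1nb the nearest were Msn, the membrane-cytoskeleton linker moesin (0.0609), Rlim, an E3 ubiquitin ligase known to promote Xist expression (0.0781), and Wbp5 (0.0850). The likeness to Fmr1nb was weaker in each case than that to Fmr1, which has a value near that of many X-linked genes.

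In level, over 48 ESC libraries and 4723 genes, log2 CPM of Fmr1nb had its highest Pearson correlation with the X-linked genes Bcap31 (r = 0.880), Bex1 (0.873) and Wbp5 (0.870). For Fmr1 these were Bhlhb9 (0.791), AI314180 on chromosome 4 (0.780) and Acsl4 (0.776). The libraries share clones and treatment, so these are descriptions. The pair itself had r = 0.467 over all 48 libraries, -0.216 among the 24 untreated and 0.401 among the 24 treated. The value was thus positive only where treated libraries were included. The 24 untreated libraries include the second of clone 38, with the lowest Fmr1 (127 CPM) and the highest Fmr1nb (184 CPM). How far r depends on that library was not tested. The treated libraries mix clones with and without the transgene on the X.

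Genes near the pair that were listed in every Tg-X library and start within 5 Mb of Fmr1 numbered 8, all on the side away from Fmr1 beyond Fmr1nb, and were tested for the share of the Cast allele with edgeR's quasi-likelihood test. In Tg-X clones 4 of the 8 lost the Cast allele at an adjusted p under 0.05, where 3.6% of 5770 genes passed in either direction and 50.6% of X-linked genes passed with a lower Cast share (56.4% without those of a single untreated allele), so the share among the neighbours was near that of X-linked genes. They were Dusp9, a MAP kinase phosphatase, with a log2 change of Cast over 129 of -0.90 ± 0.11 (SE; adjusted p = 5.95e-07), Pnma5 with -1.23 ± 0.22 (adjusted p = 0.000406), Nsdhl, a cholesterol synthesis enzyme, with -0.83 ± 0.16 (adjusted p = 0.00103), and the creatine transporter Slc6a8 with -0.79 ± 0.15 (adjusted p = 0.00108). Hmgb3, Vma21, Cetn2 and Haus7 did not pass, with -0.56, -0.19, -0.40 and -0.81. Only 2 of 8 passed when either the first or the second libraries were left out.

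Along the 5 Mb the Δ ratio in Tg-X clones did not change in one direction with distance. Fmr1nb, 83.3 kb from the start of Fmr1, had 0.269, and the next listed genes, Hmgb3 at 2.88 Mb and Vma21 at 3.13 Mb, had 0.0833 and 0.0390, close to the 0.0475 of Fmr1. Pnma5, a paraneoplastic antigen family gene at 4.36 Mb, had the highest value of the 8, 0.197 ± 0.137 (SD, 4 clones). In Tg-X;8 clones 0 of the 8 passed edgeR's test, where 0.948% of 6118 genes and 15.1% of X-linked genes did (17.6% without those of a single untreated allele); DESeq2 also called 0. At an unadjusted p under 0.05 edgeR called 2, Dusp9 and Pnma5, with a higher Cast share of log2 0.28 ± 0.10 (SE) and 0.44 ± 0.19 (SE).

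**Figure D5:**
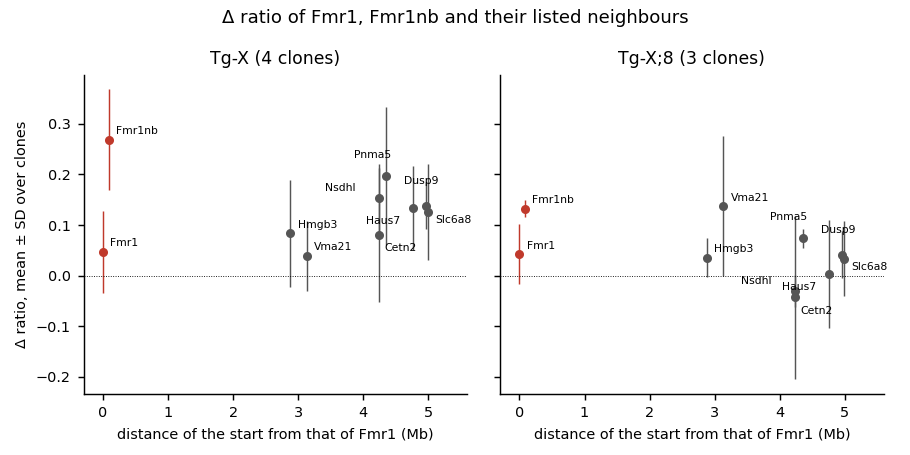
Δ ratio of Fmr1, Fmr1nb and the 8 listed neighbours against the distance of their starts from that of Fmr1 in Mb, as mean ± SD over clones, for Tg-X and Tg-X;8 clones. In Tg-X, Fmr1nb at 0.269 stands above Fmr1 at 0.0475 and above all 8 neighbours, which lie between 0.0390 and 0.197.

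In Tg-12 clones doxycycline induced Xist from chromosome 12, to 204 to 498 CPM by clone, and the X-linked pair could be tested since this contrast did not choose them. Fmr1 measured 206 and 127 CPM untreated and 199.5 and 166 CPM treated in clone 38, 233 and 248 against 205 and 212 in clone 228, and 209 and 186 against 175 and 204 in clone 273. Fmr1nb measured 89.4 and 184 against 74.4 and 93.8 CPM in clone 38, 134 and 115 against 127 and 120 in clone 228, and 111 and 123 against 114 and 97.2 in clone 273. The ranges of treated and untreated libraries overlapped for both genes, where 0.0194% of 5167 genes were lower without overlap, and 0.116% passed edgeR's quasi-likelihood test. The log2 change was -0.06 ± 0.10 (SE; 95% interval -0.25 to 0.14; adjusted p = 0.925) for Fmr1 and -0.32 ± 0.20 (SE; -0.72 to 0.08; adjusted p = 0.727) for Fmr1nb. Without the second untreated library of clone 38 the changes were -0.13 (adjusted p = 0.445) and -0.07 (adjusted p = 0.774).

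The Cast/all ratios of Fmr1nb in these clones were 0.420 and 0.441 untreated and 0.521 and 0.496 treated in clone 38, 0.462 and 0.427 against 0.464 and 0.438 in clone 228, and 0.461 and 0.339 against 0.454 and 0.459 in clone 273. Those of Fmr1 ran from 0.280 to 0.595 untreated and from 0.392 to 0.554 treated. Neither gene passed the test, as 0.0774% of genes did: the log2 change of Cast over 129 was 0.13 ± 0.23 (SE; 95% interval -0.32 to 0.59; adjusted p = 0.978) for Fmr1 and 0.23 ± 0.15 (SE; -0.07 to 0.53; adjusted p = 0.952) for Fmr1nb.

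In neurons Fmr1nb was lower than in ESCs, and Fmr1 was not past the threshold. The untreated ESC libraries of clone 38 also served in the Tg-12 comparison. Untreated neurons measured 215 CPM (label 20) and 196 CPM (label 38) for Fmr1 and 30.1 and 28.0 CPM for Fmr1nb. Untreated ESCs of clone 38 measured 206 and 127 CPM for Fmr1 and 89.4 and 184 CPM for Fmr1nb. Fmr1nb was lower in neurons by a log2 change of -2.28 ± 0.44 (SE; 95% interval -3.14 to -1.41; adjusted p = 0.000326 by edgeR's quasi-likelihood test), a comparison in which 12.2% of 7555 genes passed and 6.68% were lower. Fmr1 did not pass, with 0.32 ± 0.39 (SE; -0.43 to 1.08; adjusted p = 0.642). The size of the Fmr1nb difference was -1.54 without the second untreated library of clone 38 (adjusted p = 0.00286) and -2.26 without the neuron library labelled 38 (adjusted p = 0.0616). Over all 24 untreated ESC libraries, which range from 82.6 to 184 CPM, Fmr1nb was lower in both untreated neuron libraries without overlap, as were 14.1% of 5010 genes.

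Per length of exon the order of the pair was inverted in neurons, with a median over all 4 libraries of 46.5 CPM per kb of exon for Fmr1 and 31.2 for Fmr1nb. Of 10 neuron markers 9 were listed in neuron libraries at a summed 129 to 868 CPM, with Stmn2 in none, and 10 of 10 pluripotency markers remained listed at 1910 to 3753 CPM. Of 8 glial markers 8 were listed, at 60.2 to 342 CPM. Of 6 germ-line markers 5 were listed in some ESC library (summed 0 to 578 CPM) and in neurons (44.5 to 70.3 CPM), with Tex101 in none. Markers of several cell types were thus listed in the neuron libraries, and the part of each in the level of Fmr1nb was not tested. Neuron libraries were also sequenced more deeply than ESC libraries and 1 carries another label, which cannot be told apart from cell type. Xist measured 597 CPM (label 20) and 1084 CPM (label 38) in untreated neurons. It measured 24.1 to 297 CPM in the 15 untreated ESC libraries that list it. The study reports random X inactivation in wild-type cells that become neurons. The part of X inactivation in the neuron values of the pair was not tested.

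The Cast/all ratio of Fmr1 in untreated neurons was 0.408 and 0.483 and that of Fmr1nb 0.462 and 0.498. Neither passed edgeR's test against ESCs of clone 38, with adjusted p = 0.960 for Fmr1 and 0.729 for Fmr1nb where 1.22% of genes passed. With doxycycline the neuron libraries measured 196 and 214 CPM for Fmr1 and 23.7 and 38.0 CPM for Fmr1nb, and the ratios were 0.536 and 0.450 for Fmr1 and 0.418 and 0.460 for Fmr1nb. These treated values lie on both sides of the untreated ones for Fmr1nb level. For Fmr1nb ratio they lie below them, the nearest being 0.460 treated and 0.462 untreated. Neither difference passed edgeR's test of doxycycline in neurons. The log2 change of Fmr1nb was -0.22 ± 0.23 (SE; unadjusted p = 0.382) for the share of the Cast allele. For level it was 0.08 ± 0.30 (SE; unadjusted p = 0.799).

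Because Fmr1 fell by a small amount in X-transgene clones, the genes of FMRP's known partners and target mRNAs were read in the same libraries. Of 17 partners 12 were tested in X-transgene clones, and 4 rose and 2 fell at an adjusted p under 0.05, where 48.1% of 5510 genes passed, so a share of this size was that of all genes. The paralogs Fxr1 and Fxr2, RNA-binding proteins of the same family, fell by log2 changes of -0.26 ± 0.07 (SE; adjusted p = 0.00223) and -0.18 ± 0.05 (adjusted p = 0.00385). Cyfip1, a link to the WAVE complex, rose by 0.20 ± 0.05 (adjusted p = 0.00226) and the stress-granule protein G3bp2 by 0.24 ± 0.06 (adjusted p = 0.00217), as did Nufip2 (0.25 ± 0.09; adjusted p = 0.0170) and Top3b (0.15 ± 0.05; adjusted p = 0.0172). All are small changes, and only 1 or 2 of the partners passed when the first or the second libraries were left out. The median change over the 12 partners was 0.05 and over all genes 0.00.

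Of 16 target mRNAs 4 were tested in the X-transgene clones, where 48.1% of 5510 genes passed edgeR's test. Map1b, a microtubule-associated protein, rose by 0.45 ± 0.12 (SE; adjusted p = 0.00282) and Tsc2, a regulator of mTOR signalling, by 0.43 ± 0.08 (adjusted p = 0.000138). Sod1, a superoxide dismutase, fell by a log2 change of -0.37 ± 0.07 (adjusted p = 0.000141) and Ppp2ca was at -0.02. Any link of these changes to Fmr1 was not tested. Map1b and Sod1 no longer passed without the second libraries (adjusted p = 0.0575 and 0.0629). In Tg-12 clones, where 0.116% of genes passed, 0 of 11 partners and 0 of 5 targets passed edgeR's test, 2 and 1 were under 0.05 without adjustment, and DESeq2 called 0 of either list. In neurons against ESCs of clone 38, where 12.2% of 7555 genes passed, 1 of 14 partners rose, Cyfip2, with 2.33 ± 0.43 (SE; adjusted p = 0.000207), at 69.2 and 112 CPM in neurons against 12.4 and 24.8 CPM in ESCs. Of 6 targets 3 passed: App rose by 2.57 ± 0.48 (adjusted p = 0.000207) and Map1b by 2.22 ± 0.46 (adjusted p = 0.000721), and Arc, an activity-regulated gene, fell by a log2 change of -1.31 ± 0.42 (adjusted p = 0.0331). Without a filter App, Map1b and Arc no longer passed edgeR's test (adjusted p = 0.154, 0.156 and 0.154), nor did Cyfip2 (adjusted p = 0.0653). With 1 library left out, the change ranged from 1.21 to 3.25 for App, 1.54 to 3.15 for Map1b and -1.65 to -0.92 for Arc. The lowest values of App and Map1b came without the neuron library labelled 38.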

How the data were processed

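RNA from ESC clones and neurons was sequenced as single 43-base reads on a TruSeq library, and the authors aligned reads with TopHat 2.0.6 to Cast/Ei and 129/Sv versions of mm10, kept unique alignments, counted bases at exonic polymorphic sites (at least 5 reads per site, or 8 where a gene has 1 site) and deposited per library the allele counts, the Cast fraction and HTSeq 0.6.1 counts. The strand setting of HTSeq is not given in the sources used here. A gene is listed from 8 allele-specific reads, so a missing gene is not at 0. The deposited Cast fraction was recomputed from the counts. In the 52 libraries with a group, 2.16% to 5.71% of listed genes had more allele-specific than counted reads.

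Fmr1, Fmr1nb, the gene lists and the tests were chosen with earlier results of these data known. Named neighbours were all X-linked genes listed in every Tg-X library within 5 Mb of Fmr1. Genes of like pattern were the 3 with the smallest root mean square difference of Δ ratio and the 3 with the highest correlation of log2 CPM. List genes past the threshold were named, up to 4 in each direction. Tests used edgeR 4.0.16 (quasi-likelihood, TMM) in R 4.3.3 over all genes listed in every library of a comparison, with Benjamini-Hochberg adjustment. Clone was a term in the doxycycline tests of ESCs. The tests with neuron libraries had no term for clone. Allelic tests used both allele counts per library with a term for library. DESeq2 1.42.0, other scaling and filters, the replicate block and left-out libraries were alternatives. Scripts were tested on simulated data. Whether libraries of the same number vary together within a clone was checked: the correlation was over 0.1 in 8 of 11 clones for counts and in 2 of 11 for alleles. The main tests did not take the numbers as pairs, which the replicate block did as an alternative, while the Δ ratio was taken between libraries of the same number. Replicates were separate libraries, so p-values measure their spread, and no 2 libraries agreed within sampling noise. The 8 libraries labelled 292 entered no comparison, because the labels of 292 on cell type conflict with each other.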

Additional observations from a re-analysis of the deposited data

Results flagged for a closer look

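Dixon's test was run on 8 sets of 4 to 10 libraries of a clone category, over which chance marks about 1 in 20. Fmr1nb had a Cast/all ratio of 0.339 in the third untreated library of clone 273, below the other untreated Tg-12 libraries, with a gap of 0.660 of the range. Fmr1 had a ratio of 0.392 in the second treated library of clone 228, below the other treated Tg-12 libraries, with a gap of 0.625 of the range.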

How the results depend on the processing

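Of 390 values recomputed under alternatives, 308 kept their direction and side of the threshold, 62 no longer passed or lay lower by over 1.5 times, 11 passed only there or lay higher, and 9 turned in sign. The Δ ratios and log2 changes of Fmr1 and Fmr1nb in X-transgene clones moved by less than the spread between clones under every alternative run. In Tg-E, with 2 libraries per condition of 1 clone, leaving out 1 of them cannot move the Δ ratio beyond the spread between them. That comparison therefore says nothing on how firm the Tg-E values are. Relative to its small size the Δ ratio of Fmr1 still moved by over 1.5 times, to 0.0113 in Tg-X and 0.0189 in Tg-X;8 with libraries left out. The main limits are 2 libraries per clone, few Fmr1 allele-specific reads, and the untreated libraries of clone 38.

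In Tg-12 clones edgeR called 6 genes in total level, 0 without a filter, 0 with a replicate block, 105 by DESeq2, 10 with clone 160, and 0 to 157 with libraries left out (56 without the first and 157 without the second untreated library of clone 38). In share of alleles 4 genes passed, 2 by DESeq2, 1 with clone 160 and 1 to 10 with libraries left out. Fmr1 allelic change there was -0.0044 without the first untreated library of clone 273 and ranged from that value to 0.34 with others left out. Neurons against ESCs gave 922 calls, 187 to 2663 with libraries left out (385 without neuron label 20, 187 without neuron label 38, 2663 without the first ESC library) and 2330 with treated libraries. Fmr1nb was -2.29 without a filter (adjusted p = 0.0769) and -2.77 to -1.54 with libraries left out. The allelic comparison gave 92 calls, 0 to 62 with libraries left out and 358 with treated libraries. In it Fmr1 was -0.22 without the second ESC library and -0.094 without neuron label 38, up to 1.04 without the first ESC library, and Fmr1nb -0.018 with treated libraries. Among untreated clones Fmr1 spanned 0.59 without a filter (adjusted p = 0.0607) and Fmr1nb 0.94 without the second library of clone 38, added after seeing the data (adjusted p = 0.000501). The untreated Fmr1nb ratio was 0.469 to 0.471 with either library of each clone left out. Calls in X-transgene clones numbered 2652, and 876 and 1370 with either library left out, partners 6, and 1 and 2, and Tg-X neighbours 4, and 2 and 2. With either library of each clone left out, single genes spanned -0.41 to 0.054 (Vma21 in Tg-X) and, in Tg-X;8, -1.08 to 1.03 (Hmgb3), -0.054 to 0.26 (Cetn2), -0.10 to 0.41 (Haus7) and -0.048 to 0.77 (Slc6a8). The causes were not tested.

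Same-numbered libraries correlated from -0.586 to 0.706 for counts within a clone. With the replicate block, calls numbered 2388 in X-transgene clones, partners past the threshold 6 and neighbours 4 and 0, Fmr1 changed by -0.05 and Fmr1nb by -0.28 in Tg-12, and no other call of the pair changed. Leaving out 1 library of every clone in the test among untreated clones leaves no residual spread and could not be fitted as a test.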

Other observations

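The 8 libraries labelled 292 were put in no group. In samples 1 to 8 the Cast/all ratio of Fmr1 was 0.645, 0.417, 0.611, 0.529, 0.591, 0.484, 0.625 and 0.571 and that of Fmr1nb 0.485, 0.444, 0.471, 0.478, 0.466, 0.416, 0.483 and 0.434. Fmr1 measured 188, 228, 197, 222, 187, 206, 195 and 197 CPM and Fmr1nb 44.1, 110.3, 49.3, 85.0, 44.7, 75.7, 64.9 and 87.4 CPM.

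Each file also gives an interval per gene whose meaning is not given in the sources used here. For Fmr1 it was chrX:68715565-68717961, within the last exon, in all 60 libraries. For Fmr1nb it was chrX:68768956-68769093 in 36 libraries, an exon found in 1 of 3 curated transcripts, and chrX:68761839-68762231, exon 1, in 24. The former was given in 18 of 24 untreated and 9 of 24 treated ESC libraries, and in 4 of 16 treated X-transgene libraries.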
